A study of Homo sapiens with 36 samples.

Results

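The genes described here are 53 genes of the extracellular matrix and of mesenchymal cells: collagens, laminins, matrix glycoproteins and proteoglycans, the enzymes that cross-link or cleave them, their receptors, the contractile cytoskeleton and 3 mesenchymal transcription factors. They were taken by symbol, and a gene counted as measured where a probe of it had a detection p-value below 0.01 on at least 3 of 36 arrays. That left 44 of the 53 members, among 11437 measured genes. The 9 others (COL6A3, FBN1, FBN2, THBS2, POSTN, LUM, VCAN, LOXL2 and CNN1) are on the array but were detected on 0 to 2 arrays. At the edge of the rule, COL6A3 was detected on 2 arrays and stayed out, and MMP14 was detected on 3 and stayed in.

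The levels are those of total RNA from TC32, an established Ewing sarcoma cell line, taken 48 h after siRNAs were given at 20 nM and measured with Illumina bead arrays. Each of 3 genes was silenced with 3 siRNAs on 3 arrays each: SUPT6H, a histone chaperone that travels with RNA polymerase II (siSUPT6H_A1, A3 and Q3), SF3B1, a core part of the spliceosome (siSF3B1_A2, A3 and Q3), and HNRNPH1, an RNA-binding protein that regulates splicing (siHNRNPH1_A2, A3 and Q3). For comparison there were 6 siNeg arrays (a negative control siRNA) in 2 sets of 3, and 3 arrays labelled Untreated, which also carry the 20 nM dose in their labels and were taken as untransfected. siSUPT6H and siSF3B1 were compared with siNeg set 1 and siHNRNPH1 with siNeg set 2, the set that the deposited normalization groups it with. siSUPT6H and siSF3B1 therefore share their 3 control arrays. All groups are the same cell line in culture with 10% serum, with no matrix or stromal cells added, and nothing in the labels says that the 3 arrays of a group came from separate cultures, so that p-values measure the spread between these arrays only.

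Ewing sarcoma is driven by a fusion of EWSR1 with an ETS family gene, usually FLI1. In these tumour cells the fusion protein activates some genes and represses others, and many of the repressed genes belong to the mesenchymal programme of matrix production, adhesion and contraction. Matrix collagens are made as procollagen chains, folded and hydroxylated in the endoplasmic reticulum, secreted, trimmed and cross-linked. Cells hold the matrix through integrins, syndecans and CD44, and remodel it with metalloproteinases, which the TIMP proteins inhibit.

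Between 13106 and 16788 probes were detected per array, with the fewest on siSF3B1 arrays (13106 to 14853), and correlations within a group were 0.989 to 0.995. Each targeted mRNA was lower with its own siRNAs (limma, log2 change ± SE): SUPT6H by -1.77 ± 0.12, SF3B1 by -1.29 ± 0.09 and HNRNPH1 by -1.35 ± 0.10. SUPT6H mRNA also fell with siSF3B1, by -1.14, about as much as with siSUPT6H_Q3 (-1.12), and with siHNRNPH1 (-0.78), and HNRNPH1 mRNA fell with siSUPT6H (-0.59). HNRNPH1 mRNA fell to a like extent with its 3 siRNAs, by -1.35 (A2), -1.29 (A3) and -1.42 (Q3). EWSR1 mRNA changed by -0.44, -1.04 and -0.20 with siSUPT6H, siSF3B1 and siHNRNPH1, the last with an adjusted p of 0.0779. FLI1 mRNA changed by -0.01, 0.98 and -0.31, the first and the last not called (adjusted p = 0.956 and 0.0521). With siHNRNPH1_A3 alone FLI1 was called lower (-0.44, adjusted p = 0.0272). FLI1 was detected on 4 of 9 siHNRNPH1 arrays, so its change there was read near the detection limit. Its mean was 6.46 in siNeg set 1 and 5.25 in siNeg set 2. All 9 Ewing sarcoma markers on the array (CD99, NKX2-2, STEAP1 and others) were measured, and all but FLI1, that is 8, were detected on every array.

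HNRNPH1 silencing raised most of the matrix and mesenchymal genes that could be measured. Of the 44, 35 were higher with siHNRNPH1 than with siNeg set 2, 1 was lower and 8 were not called (limma, adjusted p below 0.05). Among all 11437 genes 21.6% were called higher and 23.5% lower. The members' median log2 change was 0.73, beside -0.02 over all genes. Since a gene silent in the controls enters only if it is raised somewhere, the same count was made without the filter over all 53 members, where 36 were higher, 1 was lower and 16 were not called (11.9% higher and 13.1% lower among 20046 genes). Of the 30 members detected on all 6 siNeg arrays, 26 were higher and 1 lower, beside 22.8% and 30.1% of 8589 genes. In RNA of a whole culture, fewer or more cells of a kind and less or more RNA per cell cannot be told apart.

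SUPT6H silencing moved the genes both ways: 17 were higher, 9 lower and 18 not called, with 25.7% and 21.8% of all genes called higher and lower. The median change was 0.18, beside 0.03 over all genes. With SF3B1 silencing 10 were higher, 14 lower and 20 not called, beside 26.2% and 35.7% of all genes, and the median was -0.05, beside -0.06. The siSF3B1 shares lie close to the background of that comparison. Without the filter, over all 53 members, siSUPT6H gave 17 higher and 8 lower (13.8% and 11.7% of genes) and siSF3B1 gave 9 and 14 (14.5% and 19.8%). Among the 30 members detected on all 6 siNeg arrays, siSUPT6H gave 15 and 9 (28.8% and 28.4%) and siSF3B1 gave 8 and 13 (29.1% and 43.4%). A further fit took siRNA and control set as a random block, with a single correlation (0.451) for all genes between arrays of a block. It allowed for differences between siRNAs, but the arrays remained the unit of replication. With it the counts were 10 higher and 2 lower for siSUPT6H, 6 and 6 for siSF3B1, and 27 and 1 for siHNRNPH1. In that fit 18%, 35.5% and 14.2% of all genes were called.

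**Figure D1:**
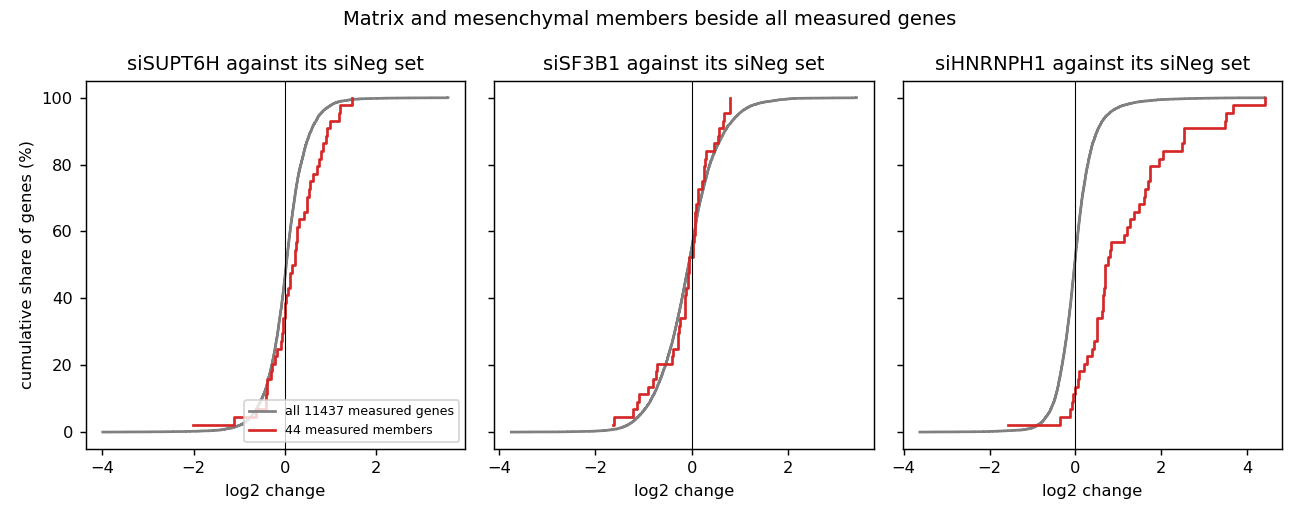
Cumulative share of genes (vertical axis, %) by log2 change against the siNeg set of the same run (horizontal axis), 1 panel per target, for all 11437 measured genes (grey) and the 44 measured members (red). With siHNRNPH1 the red line lies to the right of the grey over nearly its whole length (median 0.73 against -0.02), while with siSF3B1 the lines run close together (medians -0.05 and -0.06).

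Called with the same sign by each siRNA of a target were 23 members upward and 1 downward for HNRNPH1 (9.43% and 9.99% of all genes), 9 and 3 for SUPT6H (12.4% and 11.2%), and 6 and 9 for SF3B1 (18% and 24.7%). TIMP2, TAGLN, CDH11 and ITGB1 were higher with each of the 9 siRNAs, and MMP10 was lower with each of them. Over all genes 1.53% were higher and 3.23% lower with all 9.

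**Figure D2:**
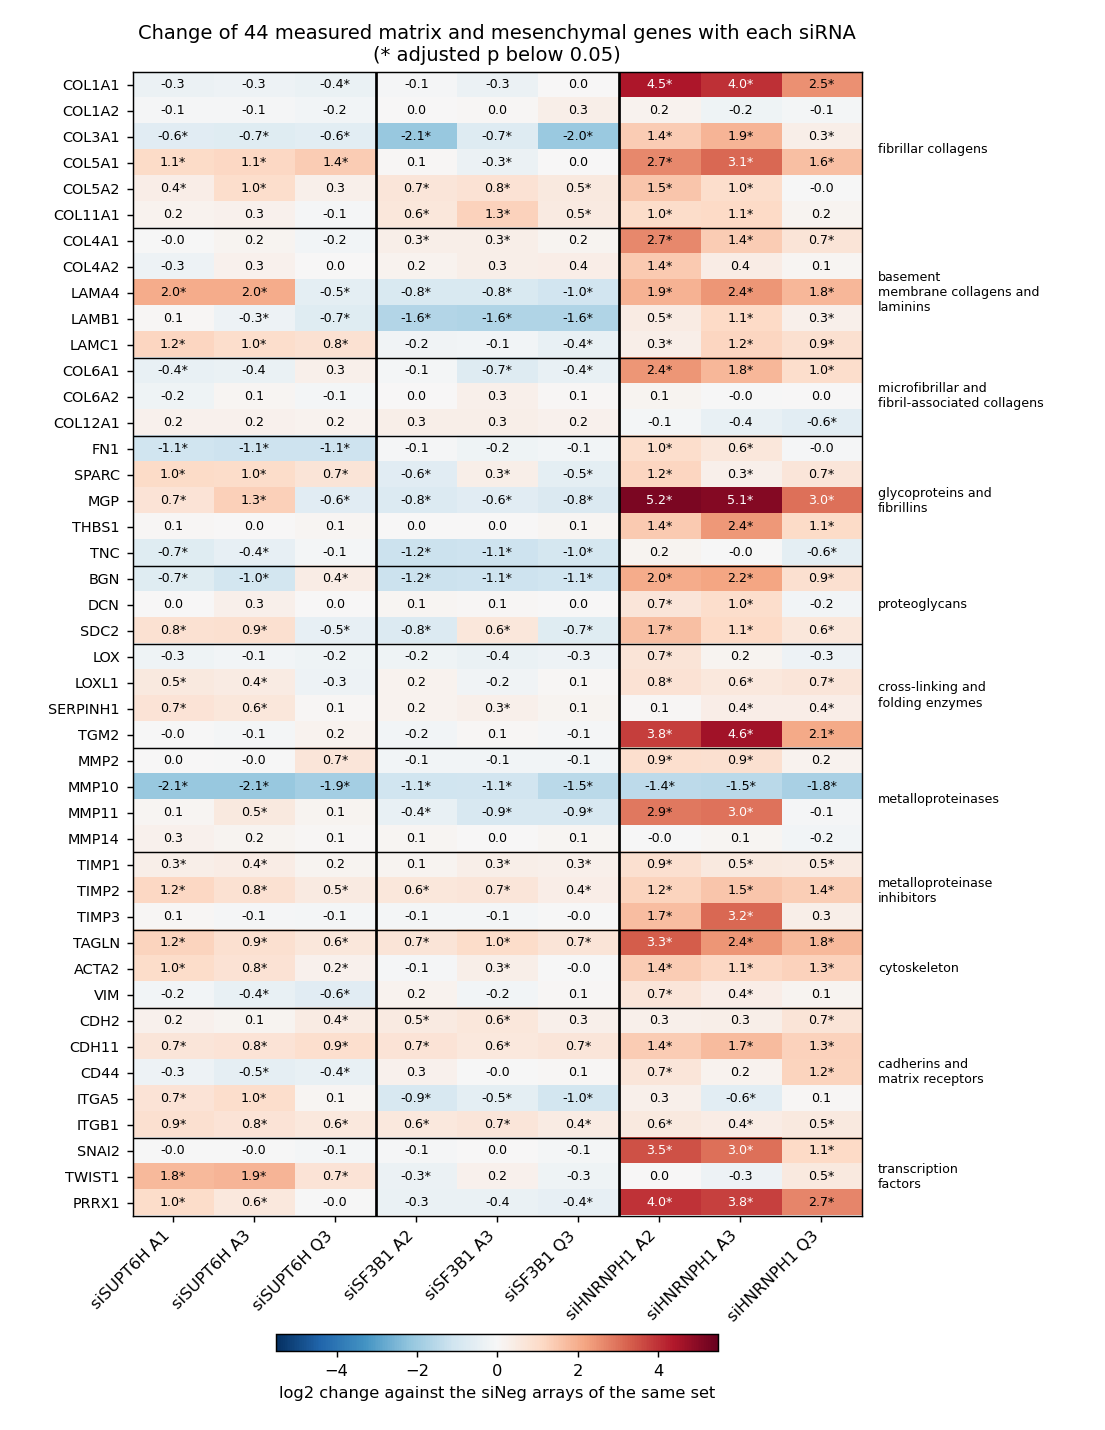
Heat map of the log2 change of each measured member (rows, ordered by role) with each of 9 siRNAs (columns) against the siNeg arrays of the same set, 3 arrays against 3, with the value in each cell and an asterisk where the adjusted p was below 0.05. The siHNRNPH1 columns are red for most rows, with paler cells for Q3 (MGP 5.16, 5.07 and 3.04), and MMP10 is blue in all 9 columns.

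The fibrillar collagens, which form the tensile fibres of connective tissue, rose with siHNRNPH1 in 5 of 6 measured members. COL1A1, a chain of type I collagen, was near the detection limit in all other groups. Its normalized log2 intensity was 5.40, 5.67 and 5.46 in siNeg set 2, and 10.02, 10.14 and 9.74 with siHNRNPH1_A2, 9.67, 9.55 and 9.43 with A3, and 8.0, 8.11 and 8.03 with Q3. The siHNRNPH1 arrays lay far above all others, and the Q3 arrays below those of A2 and A3. The change was 3.67 ± 0.12 (a fold of 12.8, adjusted p = 6.29e-32). The size depends on the background correction: the COL1A1 change was 2.52 without it and 2.27 in the authors' deposited log2 values. Folds and bounds ("at least") below are on the background-corrected scale, and the weakest value in an alternative is given for the members it moved most. COL1A2, the partner chain of type I collagen, did not follow: it was detected on 9 of 36 arrays and its change was -0.06 ± 0.15 (adjusted p = 0.79). COL1A1 was not called with siSF3B1 (-0.13 ± 0.12), and its change of -0.31 ± 0.12 with siSUPT6H (adjusted p = 0.0259) was lost in several alternatives, among them the fit without siNeg set 1 replicate 1 (-0.27, adjusted p = 0.122) and without replicate 3 (-0.32, adjusted p = 0.0679).

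COL3A1, the chain of type III collagen, was expressed in all groups and moved in opposite directions. It read 10.31, 10.24 and 10.34 in siNeg set 2, and 11.65, 11.74 and 11.63 with siHNRNPH1_A2, 12.03, 12.24 and 12.18 with A3, and 10.72, 10.58 and 10.60 with Q3. It read 10.47, 10.37 and 10.71 in siNeg set 1, and with siSF3B1 8.46, 8.37 and 8.53 (A2), 9.78, 9.80 and 9.87 (A3) and 8.19, 8.61 and 8.63 (Q3). Both sets of siRNA arrays stood clear of their controls, above them with siHNRNPH1 (1.19 ± 0.08, adjusted p = 4.69e-19) and below them with siSF3B1 (-1.60 ± 0.08, adjusted p = 1.91e-24). The siSF3B1_A3 arrays fell less than those of A2 and Q3 (-0.70 against -2.07 and -2.04). With siSUPT6H the arrays ran from 9.73 to 10.02 (median 9.89), all below siNeg set 1 (-0.63 ± 0.08, adjusted p = 1.23e-09, but 0.128 with the random block).

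COL5A1, a chain of type V collagen, which sets the width of collagen fibrils, was higher with siHNRNPH1 and siSUPT6H. With siHNRNPH1 it ranged from 9.38 to 11.11 (median 10.54) against 7.90, 7.84 and 7.84 in siNeg set 2. With siSUPT6H it ranged from 8.61 to 9.14 (median 8.77) against 7.76, 7.37 and 7.75 in siNeg set 1. Neither group of siRNA arrays overlapped its controls, with changes of 2.48 ± 0.09 (adjusted p = 9.60e-31) and 1.21 ± 0.09 (adjusted p = 2.23e-17). The siHNRNPH1 change exceeded that of siSUPT6H by 1.27 (adjusted p = 3.62e-12). It was not called with siSF3B1 (-0.07 ± 0.09). COL5A2, its partner chain, rose with all 3 targets, by 0.54 with siSUPT6H, 0.66 with siSF3B1 (7.69 to 8.02, median 7.84, against 6.90, 7.16 and 7.45) and 0.82 with siHNRNPH1, where Q3 gave -0.03. COL11A1, of type XI collagen, rose with siSF3B1 (6.25 to 7.16, median 6.41, against 5.79, 6.0 and 5.64, a change of 0.79 ± 0.12, adjusted p = 5.98e-08) and with siHNRNPH1 (0.76).

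The basement membrane genes rose with siHNRNPH1 in 5 of 5 members. COL4A1 and COL4A2 encode the chains of the commonest type IV collagen and lie head to head on chromosome 13. The interval between their annotated starts in RefSeq (GRCh38.p14, chr13:110307158-110307283, plus strand, 126 bases) is shown because both genes are read outward from it and both were higher with siHNRNPH1. Capitals mark CCAAT and GGGCGG, searched on both strands.
COL4A1-COL4A2 interval: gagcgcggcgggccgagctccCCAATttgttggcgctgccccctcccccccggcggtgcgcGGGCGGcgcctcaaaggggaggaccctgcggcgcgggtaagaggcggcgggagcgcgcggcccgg
The interval holds 1 match of each and no TATAAA. Of the 53 members, 36 had a promoter sequence in the RefSeq table used. CCAAT lay within 250 bases before the start in 14 of these 36 and in 37% of all genes of the table. GGGCGG did so in 27 of 36 and in 46.2%. Such matches describe letters only.

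COL4A1 read 7.35, 7.32 and 7.16 in siNeg set 2, and 10.05, 10.06 and 9.70 with siHNRNPH1_A2, 8.72, 8.66 and 8.66 with A3, and 8.02, 8.0 and 7.93 with Q3. All 9 arrays lay above the controls (1.59 ± 0.09, adjusted p = 2.78e-21), in the order A2, A3, Q3 with no overlap. COL4A2 kept that order of means (changes of 1.42, 0.41 and 0.12), but its arrays overlapped the controls, the overall change was 0.65 ± 0.16 (adjusted p = 6.92e-04), and only A2 was called alone. The random block gave COL4A2 an adjusted p of 0.205. Neither gene was called with siSUPT6H (-0.01 and 0.01). With siSF3B1, COL4A1 changed by 0.27 (adjusted p = 0.00949) and COL4A2 by 0.30 (adjusted p = 0.0984).

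Laminin alpha 4, beta 1 and gamma 1 (LAMA4, LAMB1 and LAMC1) join into a laminin trimer of vessels and mesenchymal tissue, and the 3 genes did not move together. LAMA4 read 5.82, 5.75 and 5.69 in siNeg set 1, and 7.75, 7.88 and 7.76 with siSUPT6H_A1, 7.80, 7.73 and 7.79 with A3, but 5.29, 5.18 and 5.19 with Q3. A1 and A3 thus lay far above the controls and Q3 below them, each called alone (2.05, 2.02 and -0.53). With siHNRNPH1 it ranged from 7.73 to 8.57 (median 7.97) against 6.03, 6.24 and 5.89, and all 3 siRNAs raised it (2.05 ± 0.11, adjusted p = 6.16e-22, and 1.20 in the deposited values). With siSF3B1 it ranged from 4.54 to 5.17 (median 4.88) and was detected on 2 of 9 arrays, all below siNeg set 1 (-0.90 ± 0.11, adjusted p = 9.90e-10, but 0.0715 with the random block).

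LAMB1 fell with siSF3B1 by almost the same amount with each siRNA (-1.62, -1.64 and -1.65). Its 9 arrays lay between 7.22 and 7.46 (median 7.34), against 9.23, 8.82 and 8.86 in siNeg set 1 (-1.64 ± 0.09, adjusted p = 1.17e-22). LAMB1 was also 0.52 higher in siNeg set 1 than in Untreated cells (adjusted p = 9.85e-04), and the smallest siSF3B1 change in any alternative was -1.12. It rose with siHNRNPH1 (0.62) and was lower with siSUPT6H than in siNeg set 1 (-0.30). A second LAMB1 probe, detected on 36 arrays, was called in neither case (0.23 and -0.14). The siSUPT6H change was not called with the random block (adjusted p = 0.381), and its mean (8.68) lay above Untreated (8.46). LAMC1 rose with siSUPT6H (9.46 to 9.97, median 9.65, against 8.75, 8.72 and 8.68, a change of 0.99 ± 0.07, adjusted p = 1.61e-16) and siHNRNPH1 (0.80), and fell with siSF3B1 (-0.25).

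Of the collagens that form microfibrils or coat fibrils, COL6A1, a chain of type VI collagen, was the only one of 3 measured that was called with siHNRNPH1. It ranged from 6.74 to 8.38 (median 7.62) against 6.19, 5.73 and 5.66, with no overlap (1.74 ± 0.13, adjusted p = 1.37e-16, and 0.94 in the deposited values). COL6A2, its partner chain, was detected on 0 of 9 siHNRNPH1 arrays by the probe that stands for it (0.05 ± 0.12), while its other 2 probes, detected on 4 and 6 arrays, changed by 0.42 and 0.60 and were called. COL12A1 changed by -0.37 (adjusted p = 0.0734).

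Matrix Gla protein (MGP), a secreted inhibitor of calcification, had the largest change of any member with siHNRNPH1. It read 7.69, 7.80 and 7.41 in siNeg set 2, and 12.79, 12.83 and 12.75 with siHNRNPH1_A2, 12.72, 12.67 and 12.71 with A3, and 10.85, 10.57 and 10.58 with Q3. The 9 arrays stood apart from every other array of the series, and Q3 stood below A2 and A3. The change was 4.42 ± 0.09 (a fold of 21.4, adjusted p = 1.98e-42), and a second probe gave 4.97. With siSF3B1 MGP ranged from 6.47 to 6.85 (median 6.67), below the 7.46, 7.41 and 7.29 of siNeg set 1 (-0.72 ± 0.09, adjusted p = 1.45e-10, 0.143 with the random block). With siSUPT6H it went both ways: 8.24, 8.16 and 7.99 with A1 and 8.79, 8.61 and 8.65 with A3, but 6.97, 6.63 and 6.69 with Q3. The siSUPT6H mean of 0.47 (adjusted p = 6.25e-06, 0.481 with the random block) therefore describes none of the 3 siRNAs.

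**Figure D3:**
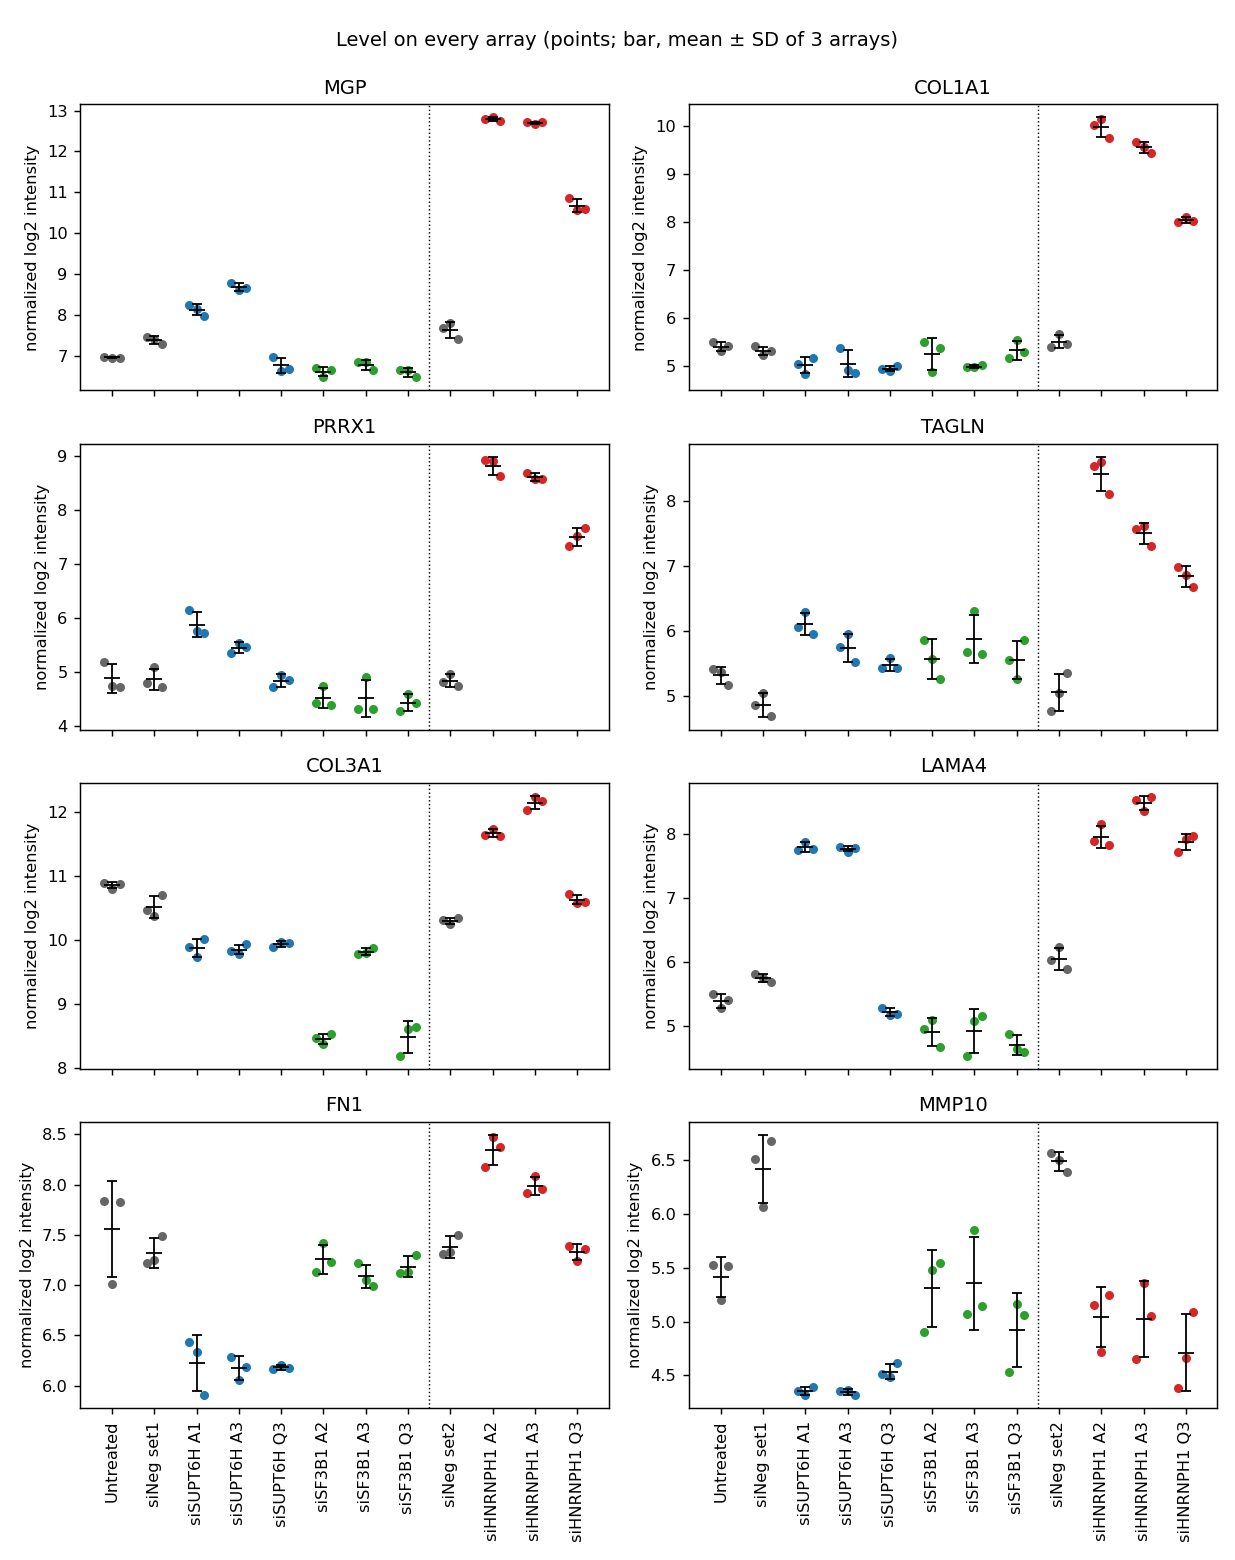
Normalized log2 intensity (vertical axis) of 8 members on every array, by group (horizontal axis), with points for single arrays and bars for the mean ± SD of 3 arrays; the dotted line separates the 24 arrays of run 1 from the 12 of run 2. MGP and COL1A1 on siHNRNPH1 arrays lie above all other groups, LAMA4 is high with siSUPT6H_A1 and A3 but not with Q3, and MMP10 is lower on all siRNA arrays than in either siNeg set.

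Fibronectin (FN1), the glycoprotein that integrins bind and collagen fibrils assemble on, fell with siSUPT6H to 5.91 to 6.44 (median 6.19) from 7.22, 7.25 and 7.49. The arrays did not overlap, and the 3 siRNAs gave -1.09, -1.14 and -1.14 (overall -1.13 ± 0.12, adjusted p = 7.65e-12). It was not called with siSF3B1 (-0.15 ± 0.12) and rose with siHNRNPH1 (0.51 ± 0.12), Q3 alone giving -0.05. The siHNRNPH1 change was not called with the random block (adjusted p = 0.173). The siSUPT6H and siSF3B1 arrays differed by -0.98 (adjusted p = 1.20e-15).

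SPARC, a collagen-binding protein, rose with siSUPT6H (10.20 to 10.70, median 10.62, against 9.63, 9.66 and 9.59, a change of 0.93 ± 0.09, adjusted p = 1.81e-13) and siHNRNPH1 (0.69). Thrombospondin (THBS1), which can activate latent TGF-beta, was undetected on the siNeg set 2 arrays (4.55, 4.34 and 4.18) and on all siSUPT6H and siSF3B1 arrays. It was detected on 9 of 9 siHNRNPH1 arrays (5.09 to 6.79, median 5.79), at least 2.13-fold higher on the background-corrected scale (adjusted p = 1.50e-16), with a log2 change of 0.56 in the deposited values. Tenascin C (TNC), a matrix protein of wounds and tumours, fell with siSF3B1 (10.36 to 10.80, median 10.50, against 11.63, 11.62 and 11.56, a change of -1.09 ± 0.07, adjusted p = 2.14e-19) and by -0.41 with siSUPT6H. It was not called with siHNRNPH1 (-0.13 ± 0.07, adjusted p = 0.117).

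Biglycan (BGN), a small proteoglycan of collagen fibrils, resembled COL3A1 in its directions. With siHNRNPH1 it ranged from 10.61 to 12.10 (median 11.94) against 10.04, 9.79 and 9.75 (1.69 ± 0.10, adjusted p = 1.91e-21). With siSF3B1 it ranged from 8.14 to 8.39 (median 8.31) against 9.12, 9.45 and 9.69 (-1.14 ± 0.10, adjusted p = 4.93e-15). The arrays of neither target overlapped their controls. With siSUPT6H, A1 and A3 lowered it and Q3 raised it (-0.67, -1.03 and 0.42). Decorin (DCN), its relative, was detected on 6 of 9 siHNRNPH1 arrays and 1 of 3 controls (0.49 ± 0.13, adjusted p = 0.00152, 0.229 with the random block). Syndecan 2 (SDC2), a heparan sulphate proteoglycan of the cell surface, rose with siHNRNPH1 (1.13 ± 0.10).

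Among the enzymes that cross-link or fold matrix proteins, transglutaminase 2 (TGM2) was undetected on siNeg set 2 arrays (4.53, 4.38 and 4.44). It read 8.27, 8.38 and 8.13 with siHNRNPH1_A2, 9.0, 9.20 and 8.98 with A3, and 6.74, 6.85 and 6.07 with Q3. These 9 arrays lay above every other array, at least 8.33-fold higher than the controls on the background-corrected scale (fitted change 3.51 ± 0.13, adjusted p = 1.39e-29, and 1.66 in the deposited values). Its other 2 kept probes rose less (0.69 and 0.85). LOXL1, a lysyl oxidase that acts on elastin, rose with siHNRNPH1 (0.69). SERPINH1, the collagen chaperone, changed by 0.27 and overlapped its controls (adjusted p = 0.00949, 0.395 with the random block). LOX was not called with any target.

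The metalloproteinases did not share a direction. MMP10, a stromelysin that cleaves fibronectin, laminin and proteoglycans, was lower with all 9 siRNAs. Its promoter in RefSeq (GRCh38.p14, chr11:102780629-102780688, minus strand) is shown for its last 60 bases before the start, with TATAAA, searched on both strands, in capitals.
MMP10 promoter: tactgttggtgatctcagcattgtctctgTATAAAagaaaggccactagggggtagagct
TATAAA begins 31 bases before the start. It lay within 250 bases before the start of 6 of 36 members and 13% of all genes.

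MMP10 read 6.51, 6.07 and 6.68 in siNeg set 1, and 4.32 to 4.61 (median 4.36) with siSUPT6H, where it was detected on 0 of 9 arrays, at least 2.98-fold lower on the background-corrected scale (adjusted p = 1.36e-15). Without background correction its log2 change was -0.81. With siSF3B1 it ranged from 4.53 to 5.86 (median 5.14, -1.22 ± 0.16, adjusted p = 2.62e-09). With siHNRNPH1 it read 5.16, 4.72 and 5.25 (A2), 4.66, 5.36 and 5.05 (A3) and 4.38, 4.66 and 5.09 (Q3), against 6.57, 6.50 and 6.39 in siNeg set 2 (-1.56 ± 0.16, adjusted p = 6.03e-12). No siRNA array reached the siNeg level. The Untreated arrays, however, read 5.52, 5.20 and 5.52, below siNeg set 1 by 1.01 (adjusted p = 4.70e-04), and overlapped the siSF3B1 arrays. Against Untreated the siSF3B1 change was -0.22 (adjusted p = 0.241).

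MMP11, a stromelysin of tumour stroma, showed the widest difference among siHNRNPH1 siRNAs. It read 6.07, 5.60 and 6.01 in siNeg set 2, 8.90, 8.90 and 8.57 with A2, 9.11, 8.91 and 8.67 with A3, and 5.88, 5.81 and 5.82 with Q3. A2 and A3 lay far above the controls and Q3 among them (2.90, 3.01 and -0.06). With siSF3B1 it ranged from 4.36 to 5.17 (median 4.78) against 5.35, 5.58 and 5.64 and was detected on 2 of 9 arrays (-0.73 ± 0.13, adjusted p = 2.95e-06, 0.230 with the random block). MMP2, a gelatinase, rose with siHNRNPH1 (0.66, adjusted p = 8.07e-05, 0.0991 with the random block), but was detected on 0 of 3 Q3 arrays. MMP14, its membrane-bound activator, was not called with any target.

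All 3 measured TIMP genes, inhibitors of metalloproteinases, rose with siHNRNPH1. TIMP2 rose with all 9 siRNAs. With siSUPT6H it ranged from 8.75 to 9.56 (median 9.12) against 8.48, 8.33 and 8.27 (0.83 ± 0.08, adjusted p = 1.82e-12), and the changes with siSF3B1 and siHNRNPH1 were 0.55 and 1.37. A second TIMP2 probe was not called with siSUPT6H (0.19) or siHNRNPH1 (0.32). TIMP3, which binds to the matrix, was undetected in all groups but siHNRNPH1, where it read 6.43, 6.37 and 6.05 (A2), 7.86, 7.60 and 7.72 (A3) and 4.48, 5.23 and 5.01 (Q3), at least 2.65-fold higher (adjusted p = 2.03e-17) but overlapping its controls (4.74, 4.47 and 4.51) with Q3. TIMP1 was higher than its siNeg set with siSUPT6H (0.30), siSF3B1 (0.25) and siHNRNPH1 (0.63). The siSUPT6H and siSF3B1 means (10.67 and 10.62) lay near that of Untreated (10.63). With the random block these 2 changes were not called (adjusted p = 0.232 and 0.254).

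Transgelin (TAGLN), an actin-binding protein of smooth muscle and myofibroblasts, rose with all 9 siRNAs. It read 4.78, 5.05 and 5.36 in siNeg set 2, and 8.53, 8.60 and 8.11 with siHNRNPH1_A2, 7.57, 7.62 and 7.31 with A3, and 6.99, 6.87 and 6.67 with Q3 (2.52 ± 0.14, adjusted p = 8.45e-22, and 1.19 in the deposited values). Against 4.87, 5.06 and 4.70 in siNeg set 1, it ranged from 5.43 to 6.29 (median 5.76) with siSUPT6H (0.91 ± 0.14, adjusted p = 3.24e-07) and from 5.27 to 6.31 (median 5.64) with siSF3B1 (0.80 ± 0.14, adjusted p = 2.21e-06). No siRNA group overlapped its own controls, but the Untreated arrays (5.42, 5.37 and 5.18) fell within or just below the siSF3B1 range. Against Untreated the changes were 0.46 (siSUPT6H, adjusted p = 0.00586) and 0.35 (siSF3B1, adjusted p = 0.0273). A second TAGLN probe, detected on 12 arrays, rose with siHNRNPH1 (1.25) but was not called with siSUPT6H (0.305) or siSF3B1 (0.124). ACTA2, the actin of contractile cells, rose with siSUPT6H (9.57 to 10.52, median 10.18, against 9.40, 9.41 and 9.32, a change of 0.69 ± 0.07, adjusted p = 2.79e-12) and siHNRNPH1 (1.28). Vimentin (VIM), the intermediate filament of mesenchymal cells, changed by -0.41 with siSUPT6H and 0.39 with siHNRNPH1. With the random block neither VIM change was called (adjusted p = 0.0797 and 0.109). The siSUPT6H mean of VIM (12.08) lay below siNeg set 1 (12.48) but near Untreated (12.19), and its A1 mean (12.32) lay above Untreated.

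Among adhesion molecules, CDH11, a cadherin of mesenchymal cells, rose with all 9 siRNAs. With siSUPT6H it ranged from 9.43 to 9.98 (median 9.67) against 8.94, 8.75 and 8.94 (0.79 ± 0.08, adjusted p = 4.13e-12), and the changes were 0.66 with siSF3B1 and 1.47 with siHNRNPH1. ITGB1, the shared beta chain of many matrix-binding integrins, also rose with all 9. With siSUPT6H it ranged from 10.98 to 11.49 (median 11.25) against 10.50, 10.35 and 10.70 (0.74 ± 0.07, adjusted p = 1.79e-12). Untreated arrays read 11.04, 11.13 and 11.09, however, above siNeg set 1 by 0.57, and against them the siSUPT6H change was 0.17 (adjusted p = 0.0503). The siSF3B1 arrays (10.92 to 11.31) overlapped the Untreated arrays. The dimmest of its probes, detected on 8 arrays, changed by -0.16 with siHNRNPH1 and was not called.

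ITGA5, the alpha chain of the fibronectin receptor, fell with siSF3B1 (4.6 to 5.79, median 5.55, against 5.84, 6.39 and 6.17, a change of -0.81 ± 0.15, adjusted p = 3.51e-06) and rose with siSUPT6H (0.61). It was not called with siHNRNPH1 (-0.09). CD44, the hyaluronan receptor, rose with siHNRNPH1 (0.69) and fell with siSUPT6H (-0.40), neither called with the random block (adjusted p = 0.0534 and 0.308). CDH2 (N-cadherin) was higher than its siNeg set with siSF3B1 (0.47) and siHNRNPH1 (0.43). With the random block neither CDH2 change was called (adjusted p = 0.14 and 0.281). The siSF3B1 mean of CDH2 (5.88) lay above siNeg set 1 (5.41) but below Untreated (5.99).

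The 3 transcription factors each had their own pattern. PRRX1, a homeobox factor of limb and craniofacial mesenchyme, was detected on 1 of 3 siNeg set 2 arrays (4.82, 4.97 and 4.74). It read 8.94, 8.91 and 8.63 with siHNRNPH1_A2, 8.7, 8.58 and 8.58 with A3, and 7.34, 7.53 and 7.67 with Q3, above every other array of the series (3.48 ± 0.13, adjusted p = 1.86e-29, and 1.76 in the deposited values). It also rose with siSUPT6H (0.52, adjusted p = 6.16e-04, 0.260 with the random block). SNAI2, a zinc finger factor that represses cadherin genes, was undetected on siNeg set 2 arrays (4.38, 4.65 and 4.30). It ranged from 5.27 to 8.02 (median 7.43) with siHNRNPH1, at least 4.22-fold higher on the background-corrected scale (adjusted p = 4.27e-20), but by a log2 change of 1.05 in the deposited values, with no change called for siSUPT6H or siSF3B1. TWIST1, a basic helix-loop-helix factor of mesenchyme, rose instead with siSUPT6H, with 7.77 to 9.28 (median 8.91) against 7.27, 7.16 and 7.22 (1.46 ± 0.10, adjusted p = 2.75e-18). It was not called with siHNRNPH1 (0.09 ± 0.10), and the 2 changes differed by -1.37 (adjusted p = 2.05e-11).

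Tests of the differences between targets covered the same members. The siHNRNPH1 change exceeded the siSUPT6H change in 28 members and was below it in 2, TWIST1 and ITGA5 (13.7% and 16.5% of all genes). With the random block 15 of these differences were called in all. The counts in that fit were 23 for siHNRNPH1 against siSF3B1 and 21 for siSUPT6H against siSF3B1. The share of all genes was not taken in that fit for differences between targets. Compared with siSF3B1, the siHNRNPH1 change was above in 31 and below in 1, COL12A1 (29.6% and 22.8% of all genes). The largest differences were those of COL1A1 (3.99 above siSUPT6H, adjusted p = 5.83e-26) and MGP (5.14 above siSF3B1, adjusted p = 3.99e-38). siSUPT6H and siSF3B1 arrays differed in 31 members, 22 higher and 9 lower with siSUPT6H (42.7% and 30.6% of all genes), LAMA4 the most (2.08, adjusted p = 2.70e-29).

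A moderated F test called differences among siHNRNPH1 siRNAs in 35 of 44 members (41.2% of all genes), among siSUPT6H siRNAs in 22 (35%) and among siSF3B1 siRNAs in 10 (13.2%). With siHNRNPH1 the median change of the members was 1.09 for A2, 1.04 for A3 and 0.54 for Q3, with 34, 32 and 27 higher (19.3%, 19.4% and 20.5% of all genes). HNRNPH1 mRNA itself changed by -1.35 (A2), -1.29 (A3) and -1.42 (Q3), as given above. SUPT6H mRNA changed by -2.21 (A1), -1.99 (A3) and -1.12 (Q3). LAMA4, MGP, BGN and SDC2 moved with Q3 against A1 and A3. Whether the extent of silencing had a part in the differences among siRNAs of either target was not tested.

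siNeg set 1 and Untreated arrays differed in 8 members (7.42% of all genes): MMP10, LAMB1, MGP and VIM were higher with siNeg (2.67% of all genes), and ITGB1, CDH2, BGN and COL3A1 lower (4.76%). Leaving out siNeg set 1 replicate 1, siNeg set 1 replicate 2 or Untreated replicate 3 brought the count to 4, 5 and 5, and with the random block it was 0. Set 2 differed from set 1 in 14 members, 9 higher and 5 lower (24.1% and 12.3% of all genes, whose median shifted by 0.13), and in 1 with the random block. The share of all genes was not taken for these random-block counts.

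In 8 lists of further genes of these pathways, siHNRNPH1 also raised more of the measured genes than it lowered, where 21.6% of all genes were higher and 23.5% lower. Only genes that passed the detection filter were counted, from 7 of 30 listed other collagens and 25 of 43 glycoproteins and proteoglycans to 17 of 20 actin genes. A gene silent in the controls enters only if it is raised somewhere, and the lists were not counted without the filter. Of 25 measured other matrix glycoproteins and proteoglycans, 19 were higher and none lower, led by MFAP4, a microfibril protein (2.94 ± 0.15), MATN2, a matrilin (1.90 ± 0.13), and IGFBP7 (1.74 ± 0.10). Of 23 genes of the TGF-beta pathway 11 were higher and 1 lower, led by VASN, a TGF-beta-binding membrane protein (3.28 ± 0.12), the co-receptor TGFBR3 (1.93 ± 0.09) and the target gene ID1 (1.70 ± 0.11). Of 17 actin cytoskeleton genes 11 were higher and 2 lower, led by ACTG2, a smooth muscle actin (2.28 ± 0.13), the myosin kinase MYLK (2.27 ± 0.14) and the tropomyosin TPM1 (2.03 ± 0.09). Other transcription factors of mesenchyme counted 9 higher and 1 lower of 13 (SOX9 1.55 ± 0.13, and OSR1 at least 2.23-fold higher), other proteases and inhibitors 8 and 0 of 14 (the plasminogen activator PLAU, 1.94 ± 0.12), collagen maturation 9 and 1 of 20, other receptors 5 and 2 of 14, and other collagens 3 and 0 of 7 (COL16A1, 0.75 ± 0.13). The named genes were called with all 3 siRNAs (limma, adjusted p at most 5.99e-06).

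Some of these genes did not share the direction of the collagens. DDR2, a receptor kinase that fibrillar collagen activates, fell with all 3 targets, by -1.41 with siSUPT6H, -1.86 with siSF3B1 and -1.43 with siHNRNPH1. So did P4HA2, a prolyl hydroxylase of collagen (-1.19, -1.56 and -0.97), and GPC4, a glypican (-0.94, -1.20 and -0.72). VASN rose with all 3 (3.22, 1.80 and 3.28). With siSUPT6H, where 25.7% of all genes were higher and 21.8% lower, the matrix glycoproteins counted 13 higher and 2 lower of 25 (MFAP4 1.64, ELN, the elastin gene, 0.68), the TGF-beta pathway 10 and 4 of 23 (TGFBR2 0.81), collagen maturation 9 and 2 of 20, and the actin list 8 and 1 of 17 (MYLK at least 2.20-fold higher). With siSF3B1, where 26.2% of all genes were higher and 35.7% lower, the corresponding counts lay near those shares for the first 2 lists: 7 and 7, 6 and 7 (TGFBI, a TGF-beta-induced matrix protein, -1.25), 3 and 7, and 7 and 4, and ADAMTS1, a protease of proteoglycans, was at least 2.54-fold higher.

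**Figure D4:**
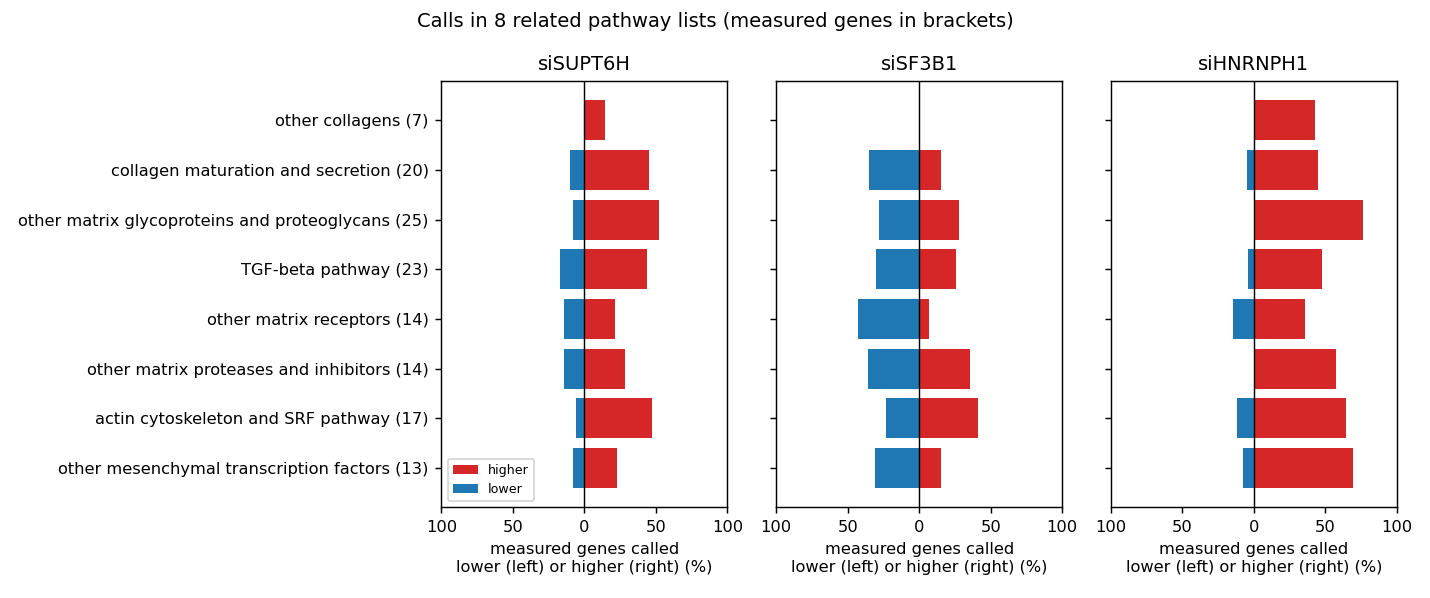
Share of the measured genes of 8 pathway lists (vertical axis, number of genes in brackets) called lower (bars to the left) or higher (bars to the right) with each target against its siNeg set (horizontal axis, %). With siHNRNPH1 the bars to the right are the longer in every list (19 of 25 matrix glycoproteins), and with siSF3B1 no such lean is seen (7 higher and 7 lower of 25 matrix glycoproteins).

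The measured markers of fibroblasts and stroma were higher on siHNRNPH1 arrays. Of 10 listed, COL1A1, DCN and LUM are members. The filter kept 6 of the 10, COL1A1 and DCN among them. All 6 were higher with siHNRNPH1, beside 21.6% of all genes. A marker silent in the controls counts as measured only if it is raised somewhere, and this count was not made without the filter. PDGFRA, a growth factor receptor of mesenchymal cells, was undetected in siNeg set 2 and at least 4.97-fold higher (adjusted p = 2.76e-27). The summed level of the 7 non-members was taken without the filter. It was 887 to 1450 intensity units on siHNRNPH1 arrays and 492 to 525 in siNeg set 2. It was 466 to 605 with siSUPT6H, 551 to 652 with siSF3B1 and 424 to 440 in siNeg set 1. FAP, LUM and PDPN were detected on no array. The summed level of 9 Ewing sarcoma markers was 11000 to 14000 on siHNRNPH1 arrays and 14000 to 14600 in siNeg set 2, and 1 of the 9 was called higher and 4 lower. Of the 3 measured blood markers CD68 (0.61) and CD14 (0.60) were higher and ITGB2 (-0.54) lower, and the summed level of the 7 on the array, to which ITGB2 contributes most, was 4110 to 5950 against 6590 to 7530. Endothelial markers were detected in 0 of 8 on siHNRNPH1 arrays. With siSUPT6H, PECAM1, an endothelial adhesion molecule, was detected on 9 of 9 arrays and at least 1.27-fold higher (adjusted p = 1.09e-06), while the 7 other endothelial markers were detected on no array. With siSF3B1, KRT18, a keratin of simple epithelia, was higher by 1.12 (adjusted p = 4.31e-11). Whether a change in the makeup of the cultures had a part in the changes was not tested.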

How the data were processed

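RNA of TC32 cells was measured in 36 samples on Illumina bead arrays. The authors deposited summarized bead intensities, not background-subtracted, with a detection p-value for each probe, and a table of normalized log2 values. GenomeStudio, R 3.0.2 and lumi are named in the submitters' processing notes. Arrays were grouped by their labels; columns named UTR were matched to Untreated as the only names left. Intensities were background-corrected and quantile-normalized with neqc (limma 3.58.1, R 4.3.3). Probes with a detection p-value below 0.01 on at least 3 arrays were kept (19738), and the probe of highest mean stood for its gene. A linear model of all 12 groups was fitted on the log2 scale with limma's moderated test, and p-values were adjusted over 11437 genes by Benjamini-Hochberg (called: adjusted p below 0.05). Differences between targets are differences between those changes. The number of arrays limits the precision. A fold given as "at least" was taken where a gene was detected on no array of a group but on some arrays of the other. The mean over all arrays of that other group was used, undetected ones included. Against it stood the mean of the undetected group, each value raised at least to the lowest detected signal on its array.

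The members and lists were chosen with earlier results of these data known. Values by array are given for up to 12 members per target with the largest change among those called in the same direction with all 3 siRNAs, and for COL1A1 and MGP; values of MMP11, TIMP3, COL4A2 and other members were chosen after they were seen. From each other list, up to 3 genes called with all 3 siRNAs were named. The script was tested on simulated data. Alternatives covered background, normalization, filter, probe choice, controls, arrays fitted, blocks and each array left out.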

Additional observations from a re-analysis of the deposited data

Results flagged for a closer look

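For 4 members the siRNAs against SUPT6H moved in opposite directions, with Q3 against A1 and A3. The largest and smallest changes lay 2.58 log2 units apart for LAMA4, the laminin chain (2.05, 2.02 and -0.53 with A1, A3 and Q3, moderated F test in limma, adjusted p = 9.11e-23). They lay 1.91 apart for MGP (0.74, 1.29 and -0.62, adjusted p = 7.67e-21). For the proteoglycans they lay 1.45 apart for BGN (-0.67, -1.03 and 0.42, adjusted p = 2.34e-14) and 1.33 apart for SDC2 (0.83, 0.87 and -0.46, adjusted p = 1.74e-13).

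Among the siRNAs against SF3B1, A3 moved against A2 and Q3 in 2 members. SDC2 changed by -0.75, 0.64 and -0.67 with A2, A3 and Q3, a spread of 1.39 (adjusted p = 3.92e-13). SPARC, the collagen-binding protein, changed by -0.64, 0.31 and -0.54, a spread of 0.95 (adjusted p = 3.48e-10). All groups have 3 arrays, too few to test a single array as an outlier.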

How the results depend on the processing

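Direction was followed through the alternatives for COL1A1, MGP and the members chosen by size of change for values by array, and none of these reversed. Some smaller changes had the other sign against Untreated. The siSUPT6H mean of LAMB1 (8.68) lay below siNeg set 1 (8.97) but above Untreated (8.46). The siSF3B1 means of CDH2 (5.88) and TIMP1 (10.62) lay above siNeg set 1 (5.41 and 10.36) but below Untreated (5.99 and 10.63). With siRNA and control set as a random block (correlation 0.451), the members called were 10 higher and 2 lower with siSUPT6H, 6 higher and 6 lower with siSF3B1, 0 between siNeg set 1 and Untreated, 1 between the siNeg sets and 15 between the siHNRNPH1 and siSUPT6H changes. Over all genes, 18%, 35.5% and 14.2% were then called for siSUPT6H, siSF3B1 and siHNRNPH1. For the other comparisons the share of all genes was not taken in that fit. Changes that it did not call included COL5A2, ITGA5 and TNC with siSUPT6H (adjusted p = 0.166, 0.181 and 0.076) and LAMC1 with siSF3B1 (0.292). The siNeg sets differed in 22 members in the authors' deposited log2 values and in 8 with the replicate block. The replicate numbers showed little sign of pairing the samples. In run 1 the deviations of same-numbered arrays of different groups correlated at -0.134 to 0.272 over 84 pairs of arrays, 10 of them over 0.1. In run 2 they correlated at -0.082 to 0.077 over 18 such pairs. The replicate block moved no other count by over 1.5 times.

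Leaving out 1 array at a time gave 1 to 2 members lower with siHNRNPH1 (2 without siNeg set 2 replicate 5, siHNRNPH1_A2 replicate 2 or siHNRNPH1_A3 replicate 1), 34 to 35 higher, 4 to 7 between siNeg set 1 and Untreated, and 6 to 10 among siSF3B1 siRNAs (6 without siSF3B1_A3 replicate 2). For siSUPT6H it gave 17 to 18 higher and 7 to 9 lower, and for siSF3B1 8 to 10 and 12 to 15. With all 6 siNeg arrays as the control COL1A1 was called lower with siSF3B1 (-0.23, adjusted p = 0.0299). COL1A1 with siSUPT6H was also lost without background correction (adjusted p = 0.158), in the deposited values (0.108) and without the filter (0.0512). The cause was not tested. Changes of dim members shrank without background correction or in the deposited values: for siHNRNPH1 to 1.66 (TGM2), 1.76 (PRRX1), 1.05 (SNAI2) and 0.56 (THBS1), and for MMP10 with siSUPT6H to -0.81, all still called. Restricting the genes to those detected on all 6 siNeg arrays was chosen after seeing the data. Members at or below the detection limit in a group have only a bound there, so 9 of the 53 could not be measured in these cells at this sensitivity.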
